A study of Mus musculus with 6 samples.

Results

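Many of the most abundant RNAs of a mammalian nucleus are never translated. Some are the RNA cores of enzymes or regulatory particles: 7SK RNA (Rn7sk) holds the elongation factor P-TEFb in an inactive complex, RNase P RNA (Rpph1) cuts the leader from tRNA precursors, RNase MRP RNA (Rmrp) acts in ribosomal RNA maturation, and telomerase RNA (Terc) carries the template for telomere repeats. Others are long transcripts of nuclear bodies, namely Malat1 in nuclear speckles and Neat1, the scaffold of paraspeckles, while Snhg1 is a spliced transcript whose introns encode box C/D small nucleolar RNAs (snoRNAs). RNase P also links these classes, because it cuts the Malat1 precursor behind an A-rich tract and so frees a small tRNA-like RNA from the 3′ end of the mature transcript.

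These 7 genes were taken by name and found by Ensembl identifier among the 48967 genes with counts listed in the deposited tables, and the rule that names them uses no measured value. RNA was sequenced from 2-cell mouse embryos of the F1 strain (C57Bl/10 X CBA/H), genotype wt, labelled day 2 and grown in fatty acid-free KSOM between 0.5 and 2.0 dpc. The control group came from control zygotes, and the delipidated group came from zygotes whose lipid droplets had been moved aside by centrifugation in cytochalasin B and then aspirated through an opening in the zona. Each group had 3 libraries, each of 3 pooled embryos, and the embryos of several females were mixed before allocation, so a library is a pool and stands for no single female. The labels and methods describe no centrifuged or opened control for sequencing, so removal of lipid and the handling around it cannot be told apart.

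Counts assigned to genes came to 12164963, 16165958 and 12980787 in control replicates 1, 2 and 3, and to 20059460, 16332103 and 14683741 in delipidated replicates 1, 2 and 3. Below, values for the libraries of a group always follow the order of the replicates. Levels are given as CPM, edgeR's counts scaled by the library size over the tested genes and its TMM factor, and the order of levels between genes was taken from CPM per kb of counted exonic parts.

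The stage given by the labels was checked first. All 12 listed genes of the 2-cell stage and all 14 listed oocyte and maternal genes passed the filter on low counts. The summed level of the 2-cell genes was 468, 214 and 421 CPM in the control libraries and 311, 395 and 464 CPM in the delipidated libraries. The maternal genes summed to 2834, 2029 and 2693 CPM and to 2436, 2393 and 3295 CPM. Per length, Tcstv3 led the first list and Dppa3, a maternal chromatin factor, led the second, and for both lists the ranges of the groups overlapped. Zscan4c, a gene of the 2-cell burst, measured 24.2, 5.81 and 20.4 CPM in the controls and 17.4, 21.5 and 26.1 CPM in the delipidated libraries. Zp2, a zona protein gene of the oocyte, measured 92.5, 60.5 and 126 CPM against 44.9, 83.3 and 82.1 CPM.

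Relative to the other RNA of their libraries, the difference between delipidated and control embryos in mean CPM was smaller than the SD between libraries for Rn7sk, Rpph1, Neat1 and Snhg1. Malat1 had the lowest edgeR p-value of the 6 RNAs tested, with a lower mean in the delipidated libraries, but that difference rested largely on control replicate 3. Rmrp, at a few CPM, was the single RNA of the 7 whose libraries did not overlap between groups, with the delipidated libraries above; of all tested genes 3.81% lay that way and 5.05% the other. Over all 16020 genes tested with edgeR's quasi-likelihood test, 0 were called higher (0.0%) and 0 lower (0.0%), where a call needed a log2 fold change past 1 in either direction and a Benjamini-Hochberg p below 0.05; 0 of the 6 RNAs tested were called. DESeq2's Wald test without a filter on low counts called 9 genes higher and 40 lower, none of them among the 7. With every gene kept, the same edgeR test placed 5 genes past the threshold as higher and 25 as lower, Malat1 among the latter. An unadjusted edgeR p-value under 0.05 was found for 463 genes (2.89%), 184 higher (1.15%) and 279 lower (1.74%), and for 1 of the 6 RNAs, Malat1. With libraries left out in turn, the number of such genes lay between 383 and 993.

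**Figure D1:**
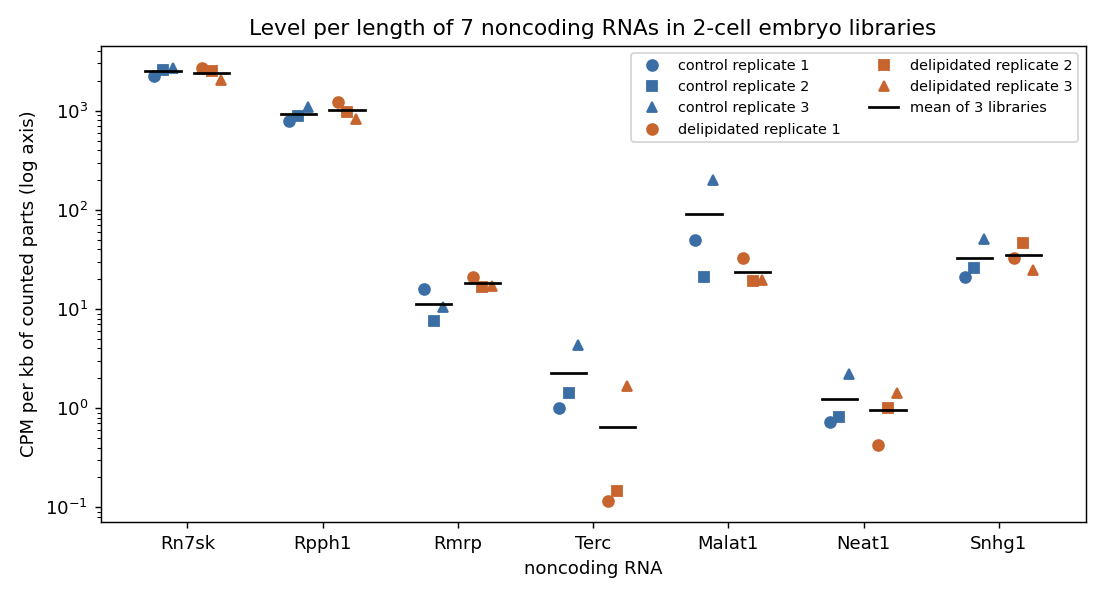
Level of each RNA in CPM per kb of counted exonic parts, on a log axis, for control (blue) and delipidated (orange) libraries; circles, squares and triangles are replicates 1, 2 and 3, and black lines are means of 3 libraries. Rn7sk lay between 2038 and 2724 and Neat1 between 0.424 and 2.21, while Malat1 in control replicate 3 stood at 200, far above its other libraries.

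7SK RNA was the most abundant of the 7 by length. Rn7sk (ENSMUSG00000065037) is annotated on the reverse strand of chromosome 9 as a single exon, which the tables list as 1 part of 331 bases. It was counted 8809, 14011 and 11860 times in controls, and 18223, 13430 and 9554 times after delipidation. Scaling gave 743, 847 and 902 CPM and 900, 825 and 674 CPM. The libraries of the groups were interleaved, with control replicate 3 and delipidated replicate 1 almost level at the top and delipidated replicate 3 at the bottom. The means were 831 ± 80.4 CPM (SD, n = 3) and 800 ± 115 CPM (SD, n = 3). The log2 fold change from edgeR was -0.05 with a standard error of 0.17 and an unadjusted p of 0.753 (adjusted p 1.00).

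By level per kb, Rn7sk took rank 9, 9 and 12 of the 16020 tested genes in the control libraries and rank 11, 12 and 13 in the delipidated libraries. It therefore ranked among the leading genes of every pool. Its share of all assigned counts was 0.0724%, 0.0867% and 0.0914% in the controls and 0.0908%, 0.0822% and 0.0651% in the delipidated libraries. The Wilson 95% interval of the lowest share, in delipidated replicate 3, ran from 0.0638% to 0.0664%. Intervals of this kind cover counting error only, since reads were not collapsed to molecules, and the libraries spread more widely than that. Multi-part genes enter the denominator several times, because a read crossing parts is counted in each. With only the part with most counts for every gene, the mean share of Rn7sk was 0.326% in control and 0.300% in delipidated embryos.

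Mouse chromosomes carry many near-copies of 7SK, and by the study's methods reads with several matches were not counted, so its level leaves out any read that also matched a copy.

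Transcripts of the proteins that package 7SK RNA were measured beside it. All 9 listed genes of the 7SK particle and of P-TEFb passed the filter, 5 with a positive and 4 with a negative fold change, and 0 had an unadjusted edgeR p-value under 0.05. Their median log2 fold change was 0.00, beside 0.00 over all tested genes. The smallest p-values belonged to Ccnt2, a cyclin partner of Cdk9, and Hexim1, the inhibitor that 7SK RNA brings to P-TEFb. Hexim1 measured 65.0, 49.4 and 87.5 CPM in the controls and 41.5, 53.1 and 59.7 CPM in the delipidated libraries, which overlapped. Ccnt2 measured 94.5, 83.5 and 83.3 CPM against 67.2, 70.2 and 78.4 CPM, without overlap, with a log2 fold change of -0.28 ± 0.24 (SE) and an unadjusted edgeR p of 0.271. Of all tested genes, 5.05% had every control library above every delipidated library.

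RNase P RNA came next. Rpph1 (ENSMUSG00000092837), on the reverse strand at chr14:50807449-50807767 of GRCm38, is likewise 1 part, of 319 bases. It had 2960, 4710 and 4588 counts in the controls and 7951, 5019 and 3710 in the delipidated libraries. This corresponded to 250, 285 and 349 CPM and to 393, 308 and 262 CPM. Delipidated replicate 1 was the highest and control replicate 1 the lowest, and the remaining libraries were mixed. The means were 294 ± 50.2 CPM and 321 ± 66.2 CPM (SD, n = 3 each), with a log2 fold change of 0.12 ± 0.22 (SE) and an unadjusted edgeR p of 0.574.

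Per kb, Rpph1 ranked between 22 and 34 of the tested genes over the 6 libraries. Rn7sk exceeded it in each of them, with a ratio of counts of 2.98, 2.98 and 2.59 in the controls and 2.29, 2.68 and 2.58 in the delipidated libraries. The controls were on average above the delipidated libraries in this ratio, with overlap. Over the 6 libraries the log2(CPM + 1) values of both RNAs had a Pearson r of 0.84, a description over libraries that share their totals.

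Part of Rpph1 is shared in the annotation with another gene, which is why its sequence is shown. In GENCODE M21 the first exon of a transcript of Ccnb1ip1, a ubiquitin ligase of meiotic crossing-over, lies inside Rpph1 on the same strand, at chr14:50807500-50807732. Of the RNA, the first 280 bases are shown (chr14:50807488-50807767, reverse strand, GENCODE M21), with these 233, positions 36 to 268, in capitals.
Rpph1: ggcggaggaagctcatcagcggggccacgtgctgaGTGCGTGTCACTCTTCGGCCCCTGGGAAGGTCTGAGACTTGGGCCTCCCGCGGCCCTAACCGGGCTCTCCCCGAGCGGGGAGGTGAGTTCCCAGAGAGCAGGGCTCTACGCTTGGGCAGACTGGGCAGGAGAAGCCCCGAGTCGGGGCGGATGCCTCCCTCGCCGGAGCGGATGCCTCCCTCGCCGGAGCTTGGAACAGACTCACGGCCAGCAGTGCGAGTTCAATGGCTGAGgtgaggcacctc
The deposited tables list no Ccnb1ip1 part there, and the gene had 170, 399 and 197 counts in the controls and 527, 415 and 360 in the delipidated libraries. In this stretch the transcripts of the pair cannot be told apart.

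RNase MRP RNA was far scarcer than its relative RNase P RNA. Rmrp (ENSMUSG00000088088), 1 part of 271 bases on the reverse strand at chr4:43492788-43493058, had 51, 34 and 37 counts in the controls and 116, 73 and 65 in the delipidated libraries. Scaled, these were 4.30, 2.06 and 2.81 CPM and 5.73, 4.48 and 4.59 CPM. Every delipidated library lay above every control library, by a small margin over control replicate 1. The exact two-sided permutation test of the mean shares gave p = 0.1, the smallest that 3 against 3 libraries allow, and 3.81% of all tested genes had this arrangement by CPM. The log2 fold change was 0.69 ± 0.74 (SE), with an unadjusted edgeR p of 0.370.

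Rmrp overlaps the first exon of Ccdc107, a coiled-coil protein gene on the opposite strand, over 124 bases. The Ccdc107 part there had 10, 7 and 18 counts in the controls and 52, 41 and 41 in the delipidated libraries. These raw counts, not scaled for library size, did not overlap between the groups. The whole gene had 18, 91 and 103 counts against 210, 101 and 104. The kit kept the strand, but the strand setting of the counting is not given, so reads of Rmrp and Ccdc107 in this stretch cannot be told apart. The sequence of Rmrp is printed from GENCODE M21 with the shared stretch, positions 36 to 159, in capitals.
Rmrp: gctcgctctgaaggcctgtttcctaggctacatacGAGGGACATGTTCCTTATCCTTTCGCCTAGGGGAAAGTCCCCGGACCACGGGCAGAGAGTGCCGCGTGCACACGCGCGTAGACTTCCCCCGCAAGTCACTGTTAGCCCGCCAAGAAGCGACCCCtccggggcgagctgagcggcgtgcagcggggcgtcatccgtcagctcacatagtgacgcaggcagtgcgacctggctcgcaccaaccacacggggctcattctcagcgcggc

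Genes for protein subunits of RNase P, most of them shared with RNase MRP, lay on both sides. All 11 listed genes were tested, 5 with a positive and 6 with a negative fold change and 0 with an unadjusted edgeR p-value under 0.05, and the median log2 fold change was -0.19. Rpp30, also the most abundant of them per kb, had 213, 278 and 164 counts in the controls and 426, 406 and 399 in the delipidated libraries. Its log2 fold change was 0.65 ± 0.38 (SE; unadjusted edgeR p 0.116), but -0.64 when the part with most counts stood for each gene. Rpp38 was low, with 3.71, 2.06 and 2.28 CPM against 0.938, 2.21 and 0.424 CPM.

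RNA polymerase III, which makes 7SK, RNase P and RNase MRP RNA from promoters read by the snRNA activating complex, was represented by 26 listed genes, all tested. Of these, 15 had a positive and 11 a negative fold change, with 1 at an unadjusted edgeR p-value under 0.05, and the median log2 fold change was 0.07. That gene was Maf1, the repressor of the polymerase, with 31, 4 and 15 counts in the controls and 506, 136 and 261 in the delipidated libraries. All its delipidated libraries were higher, as in 3.81% of all tested genes. Control replicate 2, with 4 counts, was under the filter's minimum of 10, so Maf1 entered the test through its delipidated libraries. Its log2 fold change was 3.71 ± 0.83 (SE), and its unadjusted edgeR p of 0.000857 missed the threshold after adjustment (adjusted p 1.00). Without a filter on low counts it passed, at an adjusted p of 0.00154 from edgeR and 0.00123 from DESeq2, and across the settings tried its adjusted p reached 1.00. The products of the polymerase among the 7 RNAs are those described above. Rn7sk and Rpph1 overlapped between the groups, while Rmrp was higher in all delipidated libraries, again as in 3.81% of tested genes. Polr3a, the largest subunit, measured 155, 211 and 158 CPM against 282, 293 and 154 CPM. Snapc3 of the activating complex was the most abundant of the list per kb.

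Other small RNAs were counted in the same way. Of 22 asked for, 16 were found and 7 passed the filter, while 4 had no count in any library. The list summed to 53.2, 60.7 and 61.5 CPM in the controls and to 52.9, 78.5 and 51.3 CPM in the delipidated libraries. The 7SL copy Rn7s2, RNA of the signal recognition particle, led it at a mean of 163 CPM per kb. The vault RNA Vaultrc5 measured 9.45, 6.83 and 7.22 CPM against 15.8, 8.48 and 8.82 CPM. Another 7SL copy, Rn7s6, measured 1.52, 1.88 and 2.05 CPM against 0.790, 1.41 and 0.988 CPM. Reads that match several near-identical copies of these genes were not counted, and 0 of the 7 tested had an unadjusted edgeR p-value under 0.05.

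Telomerase RNA was near the limit of detection. Terc (ENSMUSG00000064796), 1 part of 423 bases on the reverse strand at chr3:96414437-96414859, had 5, 10 and 24 counts in the controls and 1, 1 and 10 in the delipidated libraries. It was the single member of the 7 that failed the filter on low counts, so it was not tested there. Over 8 alternatives in which it was fitted, its log2 fold change ran from -3.92 to -0.91 and its adjusted p from 0.858 to 1.00. The lowest library, delipidated replicate 1, had a share of 4.99e-06% with a Wilson 95% interval from 8.80e-07% to 2.82e-05%, and 3 counts, the number that a count of 0 allows, would be 1.50e-05%. An exact two-sided permutation test of the mean shares gave p = 0.3. Its means were 2.25 ± 1.80 and 0.644 ± 0.888 CPM per kb (SD, n = 3 each), and the groups overlapped.

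The opening of the annotated Terc transcript is printed to show the template, with CCTAACC in capitals at positions 28 to 34; it was the single match in the RNA.
Terc: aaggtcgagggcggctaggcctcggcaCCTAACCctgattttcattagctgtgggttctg

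The proteins of telomerase and of H/ACA particle assembly were measured more deeply. All 10 were tested, with 7 positive and 3 negative fold changes, 1 at an unadjusted edgeR p-value under 0.05, and a median log2 fold change of 0.27. That gene was Shq1, an assembly chaperone of dyskerin, at 1.10, 2.84 and 1.44 CPM in the controls and 14.5, 6.76 and 6.07 CPM in the delipidated libraries. All delipidated libraries were higher, with a log2 fold change of 2.34 ± 0.74 (SE), an unadjusted edgeR p of 0.00854 and an adjusted p of 1.00. Naf1, a second assembly factor, measured 13.3, 20.9 and 15.3 CPM against 32.2, 21.6 and 22.1 CPM, again without overlap, with an unadjusted edgeR p of 0.144. Tert, the catalytic subunit that works on Terc, had 31, 50 and 38 counts in the controls and 177, 68 and 47 in the delipidated libraries, and its CPM did not overlap either; it was named after its values were seen. Of all tested genes 3.81% had every delipidated library above every control library. Dkc1, dyskerin itself, was the most abundant per kb.

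Malat1 varied most between libraries among the RNAs that passed the filter. Malat1 (ENSMUSG00000092341) lies on the reverse strand at chr19:5795690-5802672, where 17 parts with 6897 bases were counted for it and 1 part of 86 bases shared with Gm27694 was left out. The counts were 4049, 2384 and 18185 in the controls and 4571, 2175 and 1906 in the delipidated libraries. In CPM these were 342, 144 and 1382 against 226, 134 and 135. Control replicate 3 was 4.05 times the next library, and the other libraries of the groups overlapped. The means were 623 ± 665 CPM in control and 165 ± 52.9 CPM in delipidated embryos (SD, n = 3 each). The log2 fold change was -1.92 ± 0.62 (SE), with an unadjusted edgeR p of 0.00954 and an adjusted p of 1.00, and 2.89% of tested genes had an unadjusted p-value under 0.05. The exact two-sided permutation test of the mean shares gave p = 0.2.

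Without control replicate 3 the log2 fold change of Malat1 was -0.56 and the unadjusted edgeR p 0.169. The remaining controls then averaged 243 CPM. limma-voom on all libraries gave -1.27 and an unadjusted p of 0.0530. Without a filter on low counts edgeR gave Malat1 an adjusted p of 1.16e-11, the lowest over the alternatives, which reached 1.00, whereas DESeq2 without a filter gave 0.730. The share of assigned counts taken by Malat1 was 0.0333%, 0.0147% and 0.140% in the controls and 0.0228%, 0.0133% and 0.0130% in the delipidated libraries.

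The excess in control replicate 3 ran along the transcript, a comparison made after its values were seen. Of the parts counted for Malat1, 9 had at least 50 bases and counts, and control replicate 3 was the highest library in all 9. It was between 4.74 and 8.67 times the mean of the other 5 libraries there, with a median of 7.58. The longest part, 2830 bases at chr19:5799086-5801915, had 1252, 683 and 4821 counts in the controls and 1338, 682 and 703 in the delipidated libraries. Opposite-strand genes overlap 7 of the parts, among them Gm37376, with 540, 379 and 2875 counts against 723, 236 and 305, which cannot be told apart from Malat1. Without all such parts the log2 fold change of Malat1 was -1.82.

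**Figure D2:**
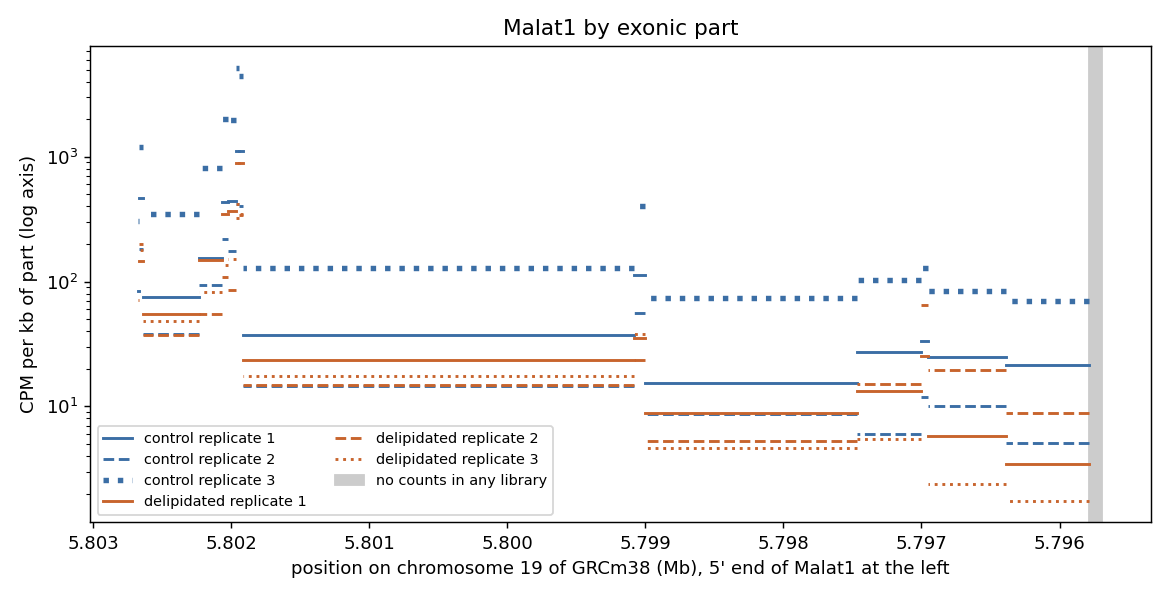
Level of each Malat1 part in CPM per kb of that part, on a log axis, against its position on chromosome 19 of GRCm38, with the 5′ end at the left; lines are libraries (blue control, orange delipidated; solid, dashed and dotted for replicates 1, 2 and 3), the part shared with Gm27694 is drawn too, values of 0 are not, and the grey band has no counts. Control replicate 3, the thick dotted line, was the highest at the 2830-base part and along the parts on either side, and the last 96 bases had no counts. A read partly inside a part is counted in full, which raises the level per kb of short parts.

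At the 3′ end the counts stopped short of the annotation. The last 3 parts, 96 bases at chr19:5795690-5795785, had 0 counts in all 6 libraries. The adjoining part of 603 bases, chr19:5795786-5796388, had 154, 51 and 557 counts in the controls and 42, 86 and 15 in the delipidated libraries. The A-rich tract behind which RNase P cuts falls inside this adjoining part: the only run of at least 10 A in the 6983-base transcript covered positions 6674 to 6685. Another 202 bases separated it from the first position without counts, 6888. The stretch without counts therefore lies downstream of the tract, in sequence that the mature RNA lacks; what kept counts from it was not tested.

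Both stretches are printed from the GENCODE M21 transcript. The first starts with the run of A, in capitals, at chr19:5795890-5795999 on the reverse strand, and goes on into the tRNA-like RNA. The second is the annotated end, chr19:5795690-5795825, with the 96 bases without counts in capitals.
Malat1 A-rich tract: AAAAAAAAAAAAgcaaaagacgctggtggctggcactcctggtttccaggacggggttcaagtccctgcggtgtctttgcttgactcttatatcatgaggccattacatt
Malat1 annotated end: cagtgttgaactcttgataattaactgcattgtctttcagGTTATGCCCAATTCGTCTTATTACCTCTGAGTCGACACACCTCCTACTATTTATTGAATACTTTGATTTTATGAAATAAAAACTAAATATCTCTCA

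Markers of other cells were read beside Malat1, since somatic cells carry much of it; the study's methods state that cumulus cells were removed with hyaluronidase and washes. In such pools, more cells of another type and more RNA per cell cannot be told apart. The listed genes of stroma and endothelium, 14 found and 9 tested, summed to 85.8, 92.7 and 110 CPM in the controls and to 142, 77.7 and 49.2 CPM in the delipidated libraries. Pecam1, an adhesion molecule with counts in every library, led the list per kb. Of the 9 tested genes, 0 had an unadjusted edgeR p-value under 0.05 in the higher and 3 in the lower direction, and the median log2 fold change was -1.46, also with genes at 0 set to their bound. Over all tested genes 1.15% had such a p-value in the higher and 1.74% in the lower direction. Vim, an intermediate filament gene of mesenchymal cells, had 152, 145 and 300 counts in the controls and 0 in each delipidated library. Its unadjusted edgeR p was 4.5e-06 and its adjusted p 0.072, which missed the threshold. Without a filter on low counts Vim passed it, with edgeR and with DESeq2. Col1a1, a collagen chain of stromal cells, had 11, 26 and 42 counts in the controls and again 0 in each delipidated library. Vim and Col1a1 therefore passed the filter on low counts through the controls alone. The number of lower genes and the median of this list follow in part from that filter. Sparc, a matrix protein gene and the third at an unadjusted edgeR p-value under 0.05, had 91, 31 and 335 counts against 0, 8 and 32. All 3 were highest in control replicate 3, as were none of the other 6 tested genes of the list, of which 3 were highest in control replicate 2 and 3 in delipidated replicate 1. This comparison was made after the values were seen. The 3 genes were picked for a lower level in the delipidated libraries, which by itself favours a control as their highest library. Col3a1 and Pdgfrb were at 0 in all delipidated libraries too, but Col3a1 also in control replicate 3 and Pdgfrb in control replicate 2. Of the 9 tested genes, 3 had a positive fold change, among them the matrix gene Fn1, named after its values were seen, with 14.4, 27.6 and 28.4 CPM in the controls and 64.3, 45.3 and 17.0 CPM in the delipidated libraries. Fewer genes had any count in the delipidated libraries (17091, 19408 and 20158) than in the controls (22855, 22437 and 20582), although the most deeply counted library was delipidated replicate 1. The part of this difference in the counts of 0 was not tested.

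The remaining marker lists gave a mixed picture. The cumulus and granulosa list, 15 found and 5 tested, summed to 191, 244 and 288 CPM in the controls and to 251, 222 and 159 CPM in the delipidated libraries, led per kb by Nr5a2, a nuclear receptor with its own role in genome activation. Its defining genes Foxl2 and Ptx3 were at 0 in all 6 libraries, the only 2 of the list. Others had counts, among them Tnfaip6, a matrix gene of cumulus expansion named after its values were seen, with 9, 44 and 86 in the controls and 17, 110 and 49 in the delipidated libraries. Cyp11a1, the side-chain cleavage enzyme of steroid synthesis, named after its values were seen, had 4, 0 and 653 counts in the controls and 0 in each delipidated library. Star, which carries cholesterol into mitochondria, measured 0, 4.84 and 6.23 CPM against 0, 0.614 and 3.04 CPM, and the matrix gene Col18a1 measured 2.03, 3.87 and 5.17 CPM against 4.20, 12.1 and 0.635 CPM. Nr5a2 made up most of the sum in every library, and of the sum in control replicate 3 Cyp11a1 gave 49.6 CPM, without which that library was not the highest.

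Leukocyte genes, 12 found and 6 tested, summed to only 20.5, 20.2 and 15.3 CPM in the controls and 7.01, 10.0 and 11.4 CPM in the delipidated libraries. The most abundant of them per kb was Cd74, and S100a8 was at 0 in every library. Coro1a measured 6.33, 3.75 and 3.19 CPM against 0, 5.16 and 1.91 CPM, and Cd79a 2.36, 6.05 and 0 CPM against 0, 0 and 0.777 CPM. Control replicate 3 was the lowest control for the leukocyte sum. Genes of oviduct epithelium, 10 found and 6 tested, summed to 216, 390 and 257 CPM against 244, 294 and 188 CPM, most of it from Epcam and Cdh1, which embryos express themselves. Of the list, Wfdc2 and Sftpd were at 0 in every library, while the oviduct glycoprotein gene Ovgp1, named after its values were seen, had 2, 81 and 17 counts in the controls and 189, 21 and 10 in the delipidated libraries. Cdh1 measured 125, 140 and 133 CPM in the controls and 70.3, 88.7 and 73.8 CPM in the delipidated libraries, with an unadjusted edgeR p of 0.00532 and an adjusted p of 1.00, and Krt18 measured 4.13, 20.2 and 7.68 CPM against 4.99, 7.07 and 1.27 CPM. The part of other cells in the level of Malat1 was not tested.

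**Figure D3:**
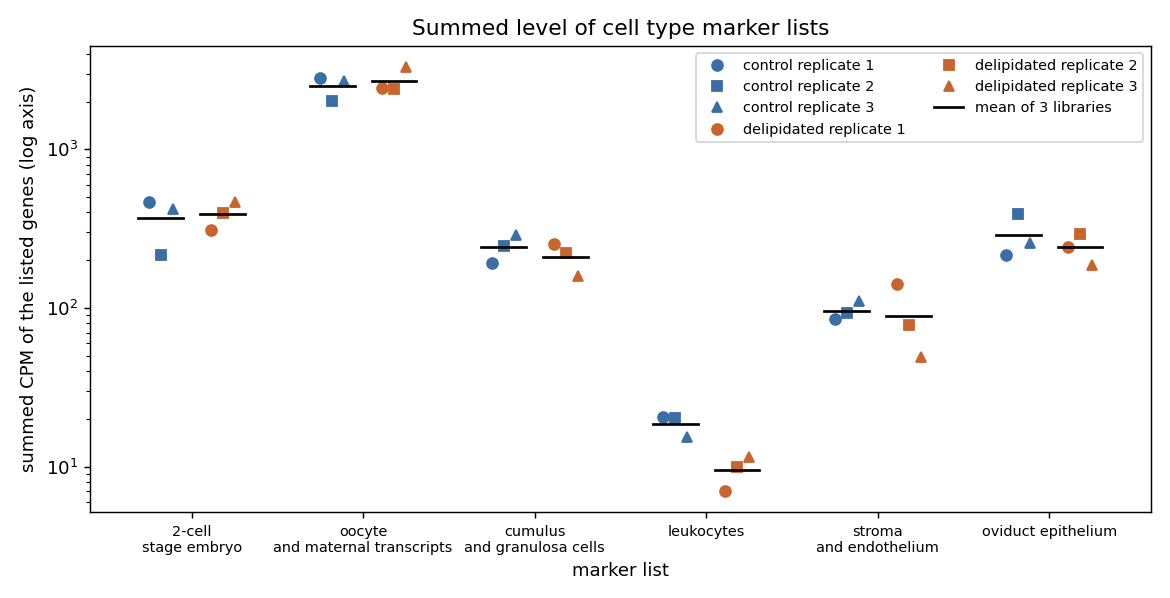
Summed CPM of the genes of each marker list, on a log axis, for the control (blue) and delipidated (orange) libraries; symbols are replicates as in the plot of levels per length and black lines are means of 3 libraries. The maternal list lay between 2029 and 3295 CPM and the leukocyte list between 7.01 and 20.5 CPM, the only list whose groups did not overlap. The leukocyte sum rests on low counts, with 6 of its 12 genes passing the filter. No test was run on the sums.

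The protein genes of nuclear speckles, where Malat1 resides, did not share its spread. All 15 were tested, 9 with a positive and 6 with a negative fold change, 1 of the latter at an unadjusted edgeR p-value under 0.05, and the median log2 fold change was 0.02. Srsf7, a splicing factor, measured 63.9, 84.7 and 80.7 CPM in the controls and 38.8, 61.8 and 42.8 CPM in the delipidated libraries (log2 fold change -0.68 ± 0.29 SE, unadjusted edgeR p 0.0386, adjusted p 1.00). Srsf3 measured 54.6, 35.0 and 46.8 CPM against 24.6, 21.1 and 44.6 CPM, which overlapped. Srsf5 was the most abundant of the list per kb.

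Neat1 and Terc had the lowest levels per kb of the 7. Neat1 (ENSMUSG00000092274), on the reverse strand at chr19:5824708-5845478, was counted over 11 parts with 20387 bases, and 6 parts shared with Gm27533, Gm27505 and Gm28006 were left out. Its counts were 173, 272 and 593 in the controls and 175, 335 and 407 in the delipidated libraries. These were 14.6, 16.5 and 45.1 CPM against 8.64, 20.6 and 28.7 CPM. Control replicate 3 was again the highest and delipidated replicate 1 the lowest, with the others overlapping. The log2 fold change was -0.39 ± 0.55 (SE; unadjusted edgeR p 0.490), and it was 0.31 without control replicate 3.

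The gene makes a short polyadenylated form and a long form that extends far past it and builds paraspeckles. The part found only in the long form, 17599 bases at chr19:5824708-5842306, had 115, 184 and 436 counts in the controls and 161, 219 and 256 in the delipidated libraries. The span of the short form, 3172 bases at chr19:5842307-5845478 that both forms contain, had 67, 109 and 190 counts against 14, 116 and 210. Counts per kb of the short span were 3.23, 3.29 and 2.42 times those of the long part in the controls and 0.482, 2.94 and 4.55 times in the delipidated libraries. The short span sums 16 parts, in which a read can be counted more than once. Its longest part alone, 1374 bases, had per kb 0.446, 2.02 and 0.881 times the counts of the long part in the controls and 1.11, 2.75 and 1.05 times in the delipidated libraries, so the order of the libraries depended on the parts taken. Counts over the long part were present in every library, at few counts per kb.

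Genes of paraspeckle proteins were read beside their RNA scaffold. All 13 were tested, 5 with a positive and 8 with a negative fold change and 1 at an unadjusted edgeR p-value under 0.05, with a median log2 fold change of -0.07. Hnrnpk led the list at 156 CPM per kb in control and 148 in delipidated embryos, against 1.25 ± 0.838 and 0.948 ± 0.496 CPM per kb (SD, n = 3 each) for Neat1. Tardbp, the RNA-binding protein TDP-43, measured 131, 163 and 131 CPM in the controls and 267, 172 and 175 CPM in the delipidated libraries (log2 fold change 0.53 ± 0.24 SE, unadjusted edgeR p 0.0468, adjusted p 1.00). Tardbp had every delipidated library above every control library, as did 3.81% of all tested genes.

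Snhg1 was intermediate. Snhg1 (ENSMUSG00000108414), on the forward strand at chr19:8723475-8726443, was counted over 48 parts with 2347 bases, and 14 parts shared with its snoRNAs were left out. It had 589, 1011 and 1568 counts in the controls and 1564, 1780 and 827 in the delipidated libraries. In CPM this was 49.7, 61.1 and 119 against 77.2, 109 and 58.4. Control replicate 3 and delipidated replicate 2 were high, and the groups overlapped. The log2 fold change was 0.09 ± 0.36 (SE; unadjusted edgeR p 0.806), and its sign turned without control replicate 1 (-0.13), control replicate 2 (-0.05) or delipidated replicate 2 (-0.18).

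Snhg1 counts were divided between its exons and introns. The exons of its 605-base transcript had 331, 737 and 1217 counts in the controls and 988, 1486 and 656 in the delipidated libraries. Sequence between the exons and outside the snoRNAs, 1742 bases, had 258, 274 and 351 counts against 576, 294 and 171. Per kb, summed exon parts exceeded the sequence between them 3.69, 7.75 and 9.98 times in the controls and 4.94, 14.6 and 11.1 times in the delipidated libraries. Both sums run over short parts in which a read can be counted more than once, 20 in exons and 28 between them, so the sizes of these ratios are uncertain. The snoRNA stretches, 622 bases, had 185, 294 and 203 counts against 505, 377 and 186, and the longest of them, Snord22, took 124, 238 and 99 against 261, 310 and 138. Counts there may come from the snoRNA or from unspliced host RNA, and none of the 8 listed snoRNAs was counted under an identifier of its own.

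Among 21 snoRNA host genes asked for, 18 were found and tested, Snhg1 included. A positive fold change was found for 5 and a negative one for 13, with 1 and 2 at an unadjusted edgeR p-value under 0.05, and the median log2 fold change was -0.39 beside 0.00 over all tested genes. Snhg6 measured 4.05, 3.08 and 2.96 CPM in the controls and 7.01, 16.9 and 11.1 CPM in the delipidated libraries (log2 fold change 1.79 ± 0.60 SE, unadjusted edgeR p 0.0115, adjusted p 1.00). Zfas1 measured 9.96, 23.4 and 14.7 CPM against 6.96, 7.99 and 7.55 CPM (unadjusted edgeR p 0.0487). Snhg6 had every delipidated library above the controls, as did 3.81% of tested genes, and Zfas1 every control library above the delipidated ones, as did 5.05%. The third, 1810032O08Rik, measured 2.87, 14.6 and 9.50 CPM against 0.494, 2.64 and 3.95 CPM, which overlapped. Gas5 was the most abundant host gene, at 73.1 and 77.8 CPM per kb in control and delipidated embryos, above Snhg1, whose mean over the 6 libraries was 33.7 CPM per kb. The length taken for Snhg1, 2347 bases, includes 1742 bases between its exons, and this order holds for that length only. By its part with most counts, of 45 bases, Snhg1 stood higher per kb, but reads partly inside so short a part raise that value.

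Other long noncoding RNAs were mostly scarce. Of 20 asked for, 19 were found and 15 tested, 5 with a positive and 10 with a negative fold change and 1 at an unadjusted edgeR p-value under 0.05, and the median log2 fold change was -0.33. Meg3, an imprinted RNA, measured 5.40, 3.27 and 9.81 CPM in the controls and 1.98, 1.90 and 1.20 CPM in the delipidated libraries (log2 fold change -1.86 ± 0.80 SE, unadjusted edgeR p 0.0406, adjusted p 1.00). Like Malat1, it was highest in control replicate 3. Tsix measured 1.01, 4.90 and 1.22 CPM against 0, 0.491 and 0.918 CPM. The most abundant of the list, 2900097C17Rik, reached a mean of 6.65 CPM per kb, under Malat1 and Snhg1 and above Neat1.

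Genes of the nuclear exosome and La, which degrade or protect unprocessed nuclear RNA, were tested in all 15 cases. A positive fold change was found for 6 and a negative one for 9, 1 of them at an unadjusted edgeR p-value under 0.05, and the median log2 fold change was -0.09. Exosc9 measured 67.9, 109 and 81.3 CPM in the controls and 42.1, 34.5 and 64.0 CPM in the delipidated libraries (log2 fold change -0.88 ± 0.32 SE, unadjusted edgeR p 0.0178, adjusted p 1.00). Its log2 fold change was -0.46 (unadjusted edgeR p 0.272) with the part with most counts. Without parts overlapping the opposite strand it was -1.28. Dis3, the nuclease, measured 170, 244 and 210 CPM against 186, 171 and 145 CPM. Ssb, which encodes La and binds the 3′ ends of polymerase III transcripts, was the most abundant per kb.

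In order of mean level per kb over the 6 libraries, Rn7sk stood at 2463 ± 273, Rpph1 at 965 ± 171, Malat1 at 57.1 ± 71.2, Snhg1 at 33.7 ± 12.3, Rmrp at 14.7 ± 4.91, Terc at 1.45 ± 1.55 and Neat1 at 1.10 ± 0.637 CPM per kb (SD, n = 6). The median tested gene stood at 3.47. For Snhg1 the length includes 1742 bases between its exons. By its part with most counts Snhg1 stood higher per kb, so its place in the order depends on the length taken. That part has only 45 bases, and a read partly inside it is counted in full, which raises its level per kb. Rn7sk was above Rpph1, Rpph1 above Malat1, Snhg1 above Rmrp and Rmrp above Terc in all 6 libraries. Malat1 exceeded Snhg1 in only 2 libraries and Terc exceeded Neat1 in 4, so these neighbours did not differ beyond their spread. The 7 RNAs together took 0.137%, 0.139% and 0.284% of assigned counts in the controls and 0.163%, 0.140% and 0.112% in the delipidated libraries. In this sum Malat1, Neat1 and Snhg1 have many parts that can share reads, and the other RNAs 1 part each, so it gives the long RNAs more weight.

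Counts of neighbouring protein-coding genes were read beside the RNAs. Ick, a kinase gene 3196 bases from Rn7sk on the opposite strand, had 185, 136 and 93 counts in the controls and 207, 184 and 43 in the delipidated libraries. Frmd8 beside Neat1 had 133, 300 and 237 counts against 95, 254 and 205. Slc3a2, the heavy chain of amino acid transporters, starts 106 bases from Snhg1 on the opposite strand and had 1598, 2413 and 2223 counts against 2090, 2649 and 1173. BC107364 beside Terc had 0 counts in every library. Of the promoters in the RefSeq table for GRCm38, those of 2 of the 7 genes were found: that of Snhg1 held TATAAA, and so also TATAA, and that of Malat1 held neither on either strand. These motifs occur in 13.6% and 24.9% of all promoters of that length.

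Genes whose pattern over the 6 libraries was most like that of each tested RNA were picked by the Pearson r of log2(CPM + 1), as a description in which all points share the libraries. They were Rpl6 and Ptger4 for Rn7sk (r = 1.00 and 0.99), 1500004A13Rik and Gm47186 for Rpph1 (1.00 and 1.00), and Lrrc4 and Fam217a for Rmrp (0.98 and 0.98). For the long RNAs they were Cryzl1 and the overlapping Gm37376 for Malat1 (0.99 and 0.99), Zup1 and Slc7a1 for Neat1 (0.99 and 0.99), and Gm10252 and Rnd3 for Snhg1 (1.00 and 0.99). With 16020 genes and 6 libraries, values this near 1 arise readily. Among the 7 themselves, Malat1 and Neat1 had an r of 0.49 and Rn7sk and Rmrp one of -0.26.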

How the data were processed

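The authors deposited raw counts per exonic part, without normalization, from total RNA of 6 libraries made with rRNA depletion. The submitters' processing notes name bcl2fastq 2.20, Trimmomatic 0.36, STAR 2.5.2b, featureCounts and the build mm10. Parts were summed to genes here. Of 33309 parts with joined identifiers, 27968 overlapped the exons of 1 gene in GENCODE M21 and went to it; leaving out the others removed between 2.49% and 2.57% of counts. Because parts can share a read, sums exceed reads and precision appears too high. Replicates are pools of embryos, and p-values measure the spread between pools. By the study's methods the pools of both groups were drawn from the same mixed set of embryos. The p-values therefore cover no spread between separate collections of embryos or separate rounds of the experiment.

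The comparison of groups used edgeR 4.0.16 under R 4.3.3 (filterByExpr, minimum count 10 and total 15, TMM, quasi-likelihood test without covariates, Benjamini-Hochberg adjustment over all tested genes). Alternatives used DESeq2 1.42.0, limma-voom (limma 3.58.1), other filters, scalings and part sums, a replicate block and each library left out. The common biological coefficient of variation was 0.663. The fit was tested on simulated data. Lists held 247 entries, of which 229 were found. Named genes are the 7 RNAs, their nearest protein-coding genes, the 2 genes of smallest p and the most abundant one of each list, and for each tested RNA the 2 genes most like it; markers given for a count of 0, and opposite-strand or competing genes, are further examples, and a few genes under the rule are not named. The members and lists were chosen with earlier results of these data known. Shares were tested by exact two-sided permutation for each of the 7 RNAs. Tables were processed with Python 3.11.15.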

Additional observations from a re-analysis of the deposited data

How the results depend on the processing

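Over the alternatives, 644 of the values for named genes kept their direction and side of the threshold, 13 reversed and 5 passed the threshold (Malat1 without a filter on low counts, and Maf1 and Vim there and with DESeq2). DESeq2 without a filter called 9 genes higher and 40 lower, with 1341 at an unadjusted p under 0.05; edgeR without a filter called 5 and 25, with 1214. Both shifted the median log2 fold change of all genes, by DESeq2 to -0.17 and by edgeR to -0.17. With libraries left out in turn, edgeR found between 383 and 993 genes at an unadjusted p under 0.05. The fold change of a named gene then ranged from -0.147 to 0.052 for Rn7sk, -0.045 to 0.26 for Rpph1, -0.80 to 0.31 for Neat1, -0.18 to 0.55 for Snhg1, -0.61 to 1.14 for Col18a1 and -0.041 to 0.74 for Zscan4c; that of Malat1 ranged from -2.39 to -0.56 and that of Rmrp from 0.47 to 1.03. The list medians ranged from -0.086 to 0.037 for the 7SK particle, -0.27 to 0.13 for RNase P and MRP proteins, -0.13 to 0.008 for paraspeckle and -0.13 to 0.092 for speckle proteins, -0.06 to 0.30 for polymerase III, -0.61 to 0.62 for cumulus, -1.22 to -0.34 for leukocyte, -1.68 to -0.87 for stroma and -0.56 to 0.052 for oviduct markers. For nuclear RNA decay and La the range was -0.22 to 0.026. Medians of snoRNA host genes ran from -0.56 to -0.23, and of other long noncoding RNAs from -0.51 to -0.22. limma-voom gave -0.018 for Col18a1. Taking the part with most counts for each gene gave -0.64 for Rpp30, 0.031 for Zp2 and -0.043 for Zscan4c, and shares in control and delipidated libraries of 0.326% and 0.300% for Rn7sk, 0.00119% and 0.00185% for Rmrp, 0.115% and 0.121% for Rpph1, 0.000369% and 0.000102% for Terc, 0.0657% and 0.0197% for Malat1, 0.00697% and 0.00493% for Neat1, and 0.00206% and 0.00217% for Snhg1, whose level was then 118 and 128 CPM per kb. For these shares the smaller denominator follows from the choice itself, and for the other changes the cause was not tested. The part taken for Snhg1 has 45 bases, and reads partly inside it are counted in full, which raises its level per kb. A replicate block gave 0 calls with edgeR and -1.28 for Malat1. Leaving out parts that overlap the opposite strand gives no value for Rmrp, and parts under a single identifier give none for Malat1, Neat1 and Snhg1. Terc had at most 24 counts in a library.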
